A study of Homo sapiens with 4 samples.

Results

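The genes described here are the 10 mitochondrial chaperones and proteases HSPD1, HSPE1, HSPA9, TRAP1, LONP1, CLPP, CLPX, HTRA2, YME1L1 and AFG3L2, which were taken by gene symbol from the 19749 rows of the authors' deposited table. All 10 had a row, and all 10 had an adjusted p-value. The study used U87, an established human glioblastoma cell line grown in medium with serum. One group received YZ129, a small molecule, at 5 µM for 24 h and the other received the vehicle DMSO, with 2 libraries of poly(A)-selected RNA per group. By its title the series concerns inhibitors acting on a pathway of HSP90, calcineurin and NFAT, and the comparison asked which transcripts differed after treatment. No label ties the 2 libraries of a group to separate cultures, and the p-values therefore reflect spread between libraries that may be technical.

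The deposited values are 1 comparison per gene, so the text gives the authors' log2 fold change ± its standard error (SE), read as YZ129 over DMSO, and a mean level (read counts divided by library size factors) in place of a value for each library. The lowest mean levels show that they were taken over 8 libraries, 4 more than the labels describe. Whether the other 4 also entered the authors' estimate of spread, and with it every SE, interval and p-value below, is unknown. The table does not state the direction of the fold change. It was read from 19 cytosolic heat shock genes, of which 11 passed with a positive sign and 0 with a negative one, because HSP90 inhibitors are known to release the heat shock factor HSF1. DMSO stands first in the comparison's name, and under the opposite reading every sign below turns round and no call changes.

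Most mitochondrial proteins are made in the cytosol, imported in an unfolded state and folded by chaperones of the matrix. HSPA9 pulls precursors through the inner membrane and folds them, the HSPD1 ring with its HSPE1 lid encloses folding proteins, and TRAP1 is the HSP90 of this compartment. Proteases that use ATP, in the matrix and in the inner membrane, remove what fails to fold or assemble. Several of these genes are known to be induced when proteins misfold in mitochondria, and HSPD1 and HSPE1 are also known targets of HSF1.

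None of the 10 genes passed the threshold of an adjusted p under 0.05 with YZ129. There were 0 rises and 0 falls among them, where 12.9% of all 14812 tested genes passed, 5.24% as rises and 7.64% as falls. Of the 7377 tested genes at a level of 1000 or more, the range in which all 10 members lie, 13.9% passed. Without adjustment, 1 of the 10 (LONP1) had a p under 0.05, against 24.9% over the whole tested set. With 10 genes, a count of 0 or 1 lies close to these background shares and is no result about the group by itself. The members' log2 fold changes ran between -0.37 and 0.054, with a median of -0.031 and a median size of 0.061. The median size over all tested genes at a level of at least 1000 was 0.19, and 7 of the 10 members lay below it. These sizes are not centred, and the median log2 fold change over those genes was -0.11. The fold changes are relative to the rest of each library, so they show neither a change in cell number nor one in total RNA per cell.

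The members were measured about as precisely as other abundant genes. Their SE ran from 0.14 to 0.17, beside a median of 0.16 for tested genes at that level. Of the tested genes in that range of level, 5533 had an SE no larger than the largest SE of the members. Of these, 884 passed, and the smallest change that passed was 0.35 on the log2 scale. LONP1, at -0.37, was larger in size and did not pass, so 0.35 is no limit for the members. A 95% normal interval was computed for each member from the authors' SE. It included 0 for 9 of the 10. The estimates of 6 members lay within 1 SE of 0, and those of TRAP1, LONP1, CLPP and AFG3L2 lay further below it. The median was 0.012 for the 4 chaperones and -0.13 for the 6 proteases, a difference that was not tested. The outermost bounds over all 10 genes correspond to ratios of 0.631 and 1.26, so changes beyond those sizes lie outside every member's interval. The authors' fold changes are moderated towards 0; if the largest SE in the table, 0.83, is taken as the width of the prior, the moderation of the members was at most 4.09%.

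**Figure D1:**
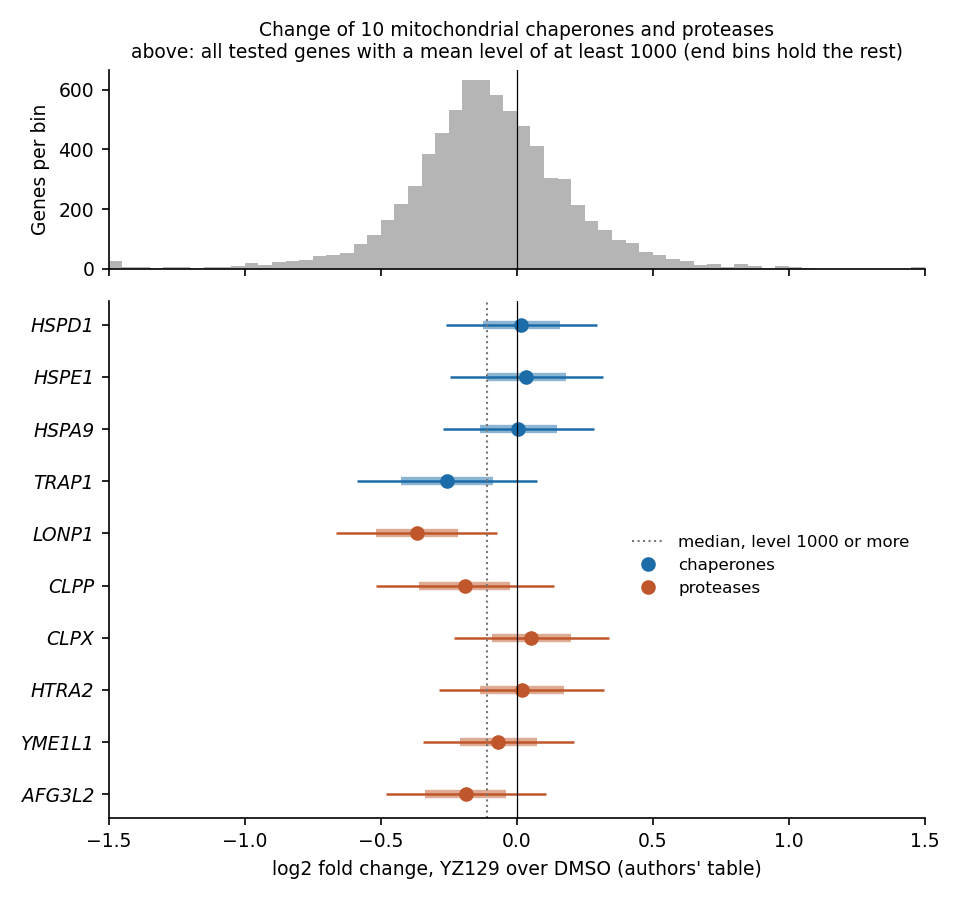
Authors' log2 fold changes (YZ129 over DMSO) of the 10 genes, with points for the estimates, thick bars for 1 SE and thin lines for the 95% interval; the histogram above shows all tested genes at a mean level of 1000 or more. The interval of LONP1 alone among the 10 leaves out 0, and 5 genes lie on each side of 0.

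HSPD1 and HSPE1 encode the chaperonin and its lid, and neither differed detectably. In the authors' deposited table HSPD1 had a log2 fold change of 0.017 ± 0.14 (adjusted p = 0.958) and HSPE1 one of 0.036 ± 0.14 (adjusted p = 0.911). The difference, HSPD1 minus HSPE1, was -0.018, with a 95% interval of -0.41 to 0.38 if their errors are treated as independent. In RefSeq's GRCh38.p14 annotation they are transcribed in opposite directions on chromosome 2, with 104 bases between the start of HSPD1 at 197500274 and that of HSPE1 at 197500379. In GENCODE 29, a different annotation, their exons share 169 bases on opposite strands, out of 2570 in HSPD1 and 1030 in HSPE1. The stretch between the RefSeq start sites holds an E-box, the letters CACGTG. Of all 35116 RefSeq promoter windows of 300 bases, 7.26% also hold it.

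Upstream of a second HSPD1 start site, at 197499840, lie overlapping pairs of heat shock units, the sequence that HSF1 is known to bind. Pairs were searched on both strands as TTCNNGAA, present in 7.74% of promoter windows, and as GAANNTTC, present in 6.77%. An arrangement in which the pairs overlap by 3 letters occurs in 172 windows (0.49%), and HSPD1 is the only member of the 8 with a window in the table that has it. The same arrangement is found in HSPA6, the strictly inducible HSP70, and in HSPA8, the constitutive cytosolic HSP70. HSPA6 and HSPA8 were picked with their positive calls known. No stretches of other genes outside the members were extracted. What share of all genes with this arrangement rose was not counted, so no link between the arrangement and a rise is shown. Capitals mark the matched letters, and each stretch is written 5′ to 3′ on the strand of its gene.

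HSPD1, chr2:197500061-197500090, minus strand: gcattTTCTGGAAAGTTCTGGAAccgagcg
HSPA8, chr11:123062346-123062375, minus strand: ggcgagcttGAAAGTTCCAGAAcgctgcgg
HSPA8, chr11:123062171-123062200, minus strand: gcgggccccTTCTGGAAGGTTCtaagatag
HSPA6, chr1:161524457-161524486, plus strand: gcggaaaggTTCGCGAAAGTTCgcggcggc

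In the authors' deposited table HSPA6 rose by 2.64 ± 0.23 on the log2 scale (adjusted p = 4.56e-27) and HSPA8 by 0.58 ± 0.14 (adjusted p = 0.00125). Both belong to the genes from which the direction was read, so their sign is not a finding. HSPD1 carries 3 matches in its stretch, and its log2 fold change was 0.017. The sites differ in position. In HSPD1 the first matched base lies 245 bases before the second start site, and the stretch lies downstream of the start at 197500274. The HSPA6 match shown begins 74 bases before its start site, and those of HSPA8 begin 55 and 230 bases before theirs. A match of letters is a description and does not show that a factor binds there.

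HSPA9, the mitochondrial HSP70 also called mortalin, was the gene closest to 0 before any centring. The authors' deposited table gives it a log2 fold change of 0.0057 ± 0.14 (adjusted p = 0.987), and its 95% interval ran from -0.27 to 0.28. Relative to the median of genes in the same decile of mean level, AFG3L2 (-0.072) was closest to 0. HSPD1 then stood at 0.17 and HSPE1 at 0.19. HSPA9 stood at 0.16, also without a call. Its cytosolic relative HSPA8 differed from it: the difference, HSPA9 minus HSPA8, was -0.57, with an interval of -0.97 to -0.18 under independent errors. This pair was chosen after the values were seen. The HSPA9 window holds a single TTCNNGAA pair and an E-box.

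HSPA9, chr5:138575387-138575416, minus strand: tggttggaggtTTCCAGAAgcgctgccgcc

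TRAP1, the HSP90 of mitochondria, had the lowest value of the 4 chaperones, -0.26 ± 0.17 in the authors' deposited table, and did not pass (adjusted p = 0.352). Of the tested genes at a level of at least 1000, 26.6% had a lower value than TRAP1. The cytosolic HSP90 gene HSP90AA1 stood at -0.036 ± 0.14 in the authors' deposited table. TRAP1 minus HSP90AA1 was -0.22, with an interval of -0.65 to 0.21. TRAP1 shares 824 of its 2942 annotated exon bases with DNASE1 on the other strand. DNASE1 had a mean level of 100.4 and a log2 fold change of 0.67 ± 0.27 (adjusted p = 0.0854) in the authors' deposited table, without a call.

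LONP1, the soluble matrix protease that degrades damaged and unassembled proteins, had the most negative value of the 10. In the authors' deposited table its log2 fold change was -0.37 ± 0.15, a level 1.29-fold lower with YZ129 and a 95% interval of -0.66 to -0.071, at an unadjusted p of 0.0151 and an adjusted p of 0.0906. It therefore did not pass at 0.05 and would pass at 0.1. Among tested genes with a level of at least 1000, 14.8% had a lower value. Relative to the median of genes in the same decile of mean level, LONP1 stood at -0.21 (adjusted p = 0.446). The median of that decile, the most abundant genes, was -0.16. LONP1 minus HSPD1 was -0.38, with an interval of -0.79 to 0.021 that includes 0. A pair of E-boxes lies before the LONP1 start site at 5720146 on chromosome 19. They are printed because LONP1 is described as a target of MYC, a factor known to bind E-boxes.

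LONP1, chr19:5720341-5720370, minus strand: ctcacagccttcCACGTGaccggaaaaggc
LONP1, chr19:5720178-5720207, minus strand: cgcgccgggcgtCACGTGcgtttcgcggcg
HSPE1, chr2:197500345-197500374, plus strand: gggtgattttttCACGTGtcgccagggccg

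The HSPE1 stretch is the site shared with HSPD1, read on the HSPE1 strand. E-boxes were found in 4 of the 8 members with a promoter entry, namely HSPA9, HSPD1, HSPE1 and LONP1. By window that is 4 of 11, with the shared site counted for both HSPD1 and HSPE1, beside 7.26% of all windows. The motif was chosen with earlier results known, and the difference in share was not tested. The log2 fold changes of HSPA9, HSPD1 and HSPE1 lay between 0.0057 and 0.036, and that of LONP1 was -0.37. A second LONP1 window holds a core site of the respiratory regulator NRF1, CGCATGCG, which is present in 2.02% of all windows. The composite site of ATF4 and CHOP, TGATGCAA, was found in 0 member windows and in 0.866% of all windows. CLPP and YME1L1 were not matched.

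CLPP and CLPX form the other soluble matrix protease: CLPX is a ring that unfolds proteins with ATP and CLPP is the chamber that cuts them. CLPP had -0.19 ± 0.17 (adjusted p = 0.517) and CLPX 0.054 ± 0.15 (adjusted p = 0.863) in the authors' deposited table. The estimates had opposite signs, but the difference, CLPP minus CLPX, was -0.24 with an interval of -0.68 to 0.19. LONP1 minus CLPP was -0.18, with an interval of -0.62 to 0.27.

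HTRA2, a serine protease of the intermembrane space that binds inhibitor of apoptosis proteins when released, stood at 0.018 ± 0.15 (adjusted p = 0.960) in the authors' deposited table. Its exons overlap those of AUP1 by 483 bases and those of LOXL3 by 625 bases, out of 2370, on the other strand. Those neighbours had -0.033 ± 0.16 (AUP1) and -0.20 ± 0.15 (LOXL3) in the authors' deposited table, without a call for either.

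YME1L1 and AFG3L2 are the ATP-dependent proteases of the inner membrane. YME1L1 faces the intermembrane space and is known to cleave the fusion protein OPA1, while AFG3L2 faces the matrix and assembles with the paraplegin SPG7. YME1L1 had -0.068 ± 0.14 (adjusted p = 0.816) and AFG3L2 -0.19 ± 0.15 (adjusted p = 0.467) in the authors' deposited table. AFG3L2 minus YME1L1 was -0.12, with an interval of -0.52 to 0.28. YME1L1 shares 443 of its 7159 exon bases with MASTL on the other strand, which gave no call (-0.34 ± 0.15, adjusted p = 0.135, in the authors' deposited table). AFG3L2 lies across from the tubulin gene TUBB6, which fell by 1.51 ± 0.15 on the log2 scale (adjusted p = 4.01e-22) in the authors' deposited table. GENCODE places 638 of the 3247 AFG3L2 exon bases opposite TUBB6 exons. The sources used here do not say whether the authors counted by strand, and the part of these shared bases in the AFG3L2 value was not tested.

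**Figure D2:**
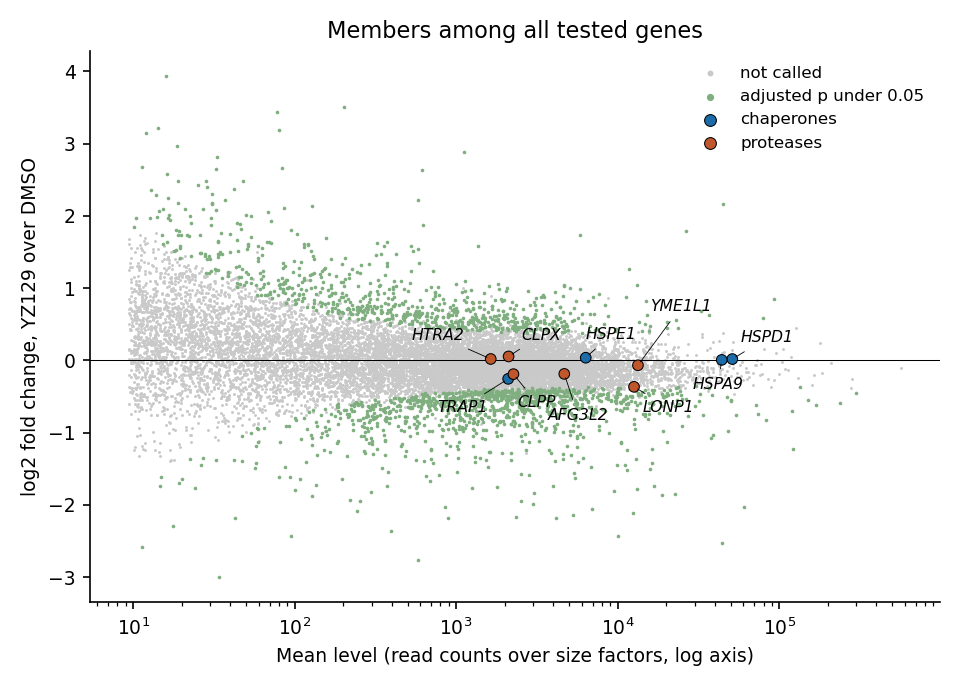
Mean level (log axis) against the authors' log2 fold change (YZ129 over DMSO) for all 14812 tested genes, with the 1908 that passed in green and the 10 members as large points. All members lie among the grey genes; LONP1, at -0.37, lies next to the lower edge of that band.

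Mean levels of the members ran from 1637 for HTRA2 to 51273 for HSPD1 in the authors' deposited table. Per transcript length the chaperonin was the most abundant of the group. The mean level in the authors' deposited table was divided by the length of the longest principal transcript in GENCODE 29, which may differ from the authors' gene models. HSPD1 reached 20885 per 1000 bases, HSPA9 9331 and HSPE1 6678. These 3 lie above at least 97.1% of the 12791 tested genes with a length. LONP1 (3903) and YME1L1 (3464) followed, then CLPP (1956) and AFG3L2 (1439). TRAP1, at 914 per 1000 bases, was low for a chaperone of this group, and HTRA2 (691) and CLPX (450) were the lowest. The highest level per length was 46.4 times the lowest. No spread over libraries can be given for these levels, so it is not known which neighbours in the order differ. The mean level, taken over 8 libraries, is no level of either group.

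**Figure D3:**
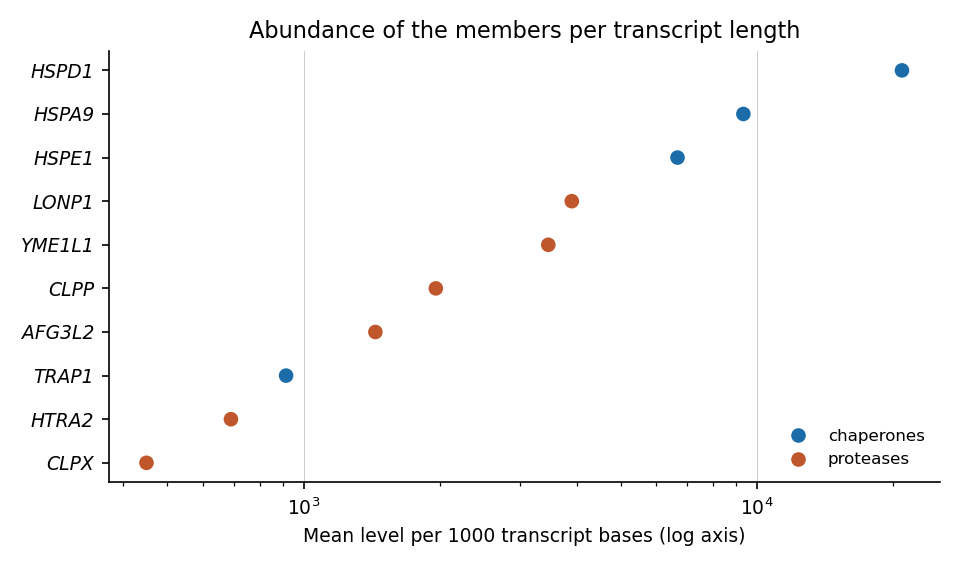
Mean level per 1000 transcript bases (log axis) of the 10 genes, without an error since the table gives 1 mean per gene. HSPD1, HSPA9 and HSPE1 stand highest, between 6678 and 20885, and CLPX lowest at 450.

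The closest partners of these chaperones and proteases gave no call either. Among 8 partners of the mitochondrial HSP70 and chaperonin 0 passed, as against 12.9% of all tested genes, with 0 at an unadjusted p under 0.05 and a median log2 fold change of -0.17. Of these, 6 had negative and 2 positive estimates. The nucleotide exchange factors of HSPA9 stood at 0.059 ± 0.15 (GRPEL1) and -0.30 ± 0.19 (GRPEL2) in the authors' deposited table. Its J-domain partners stood at 0.033 ± 0.15 (DNAJA3), -0.20 ± 0.17 (DNAJC19) and -0.29 ± 0.16 (DNAJC15) in the authors' deposited table. Among 14 other mitochondrial proteases and peptidases 0 passed, 2 had an unadjusted p under 0.05, and the median was -0.033. Over all tested genes 12.9% passed and 24.9% had an unadjusted p under 0.05. The inner-membrane peptidase IMMP2L (-0.55 ± 0.24) was the lowest of them in the authors' deposited table. Of 8 scaffolds, regulators and substrates of the inner-membrane proteases, the prohibitins PHB and PHB2 and OPA1 included, 0 passed, 0 had an unadjusted p under 0.05, and the values spanned -0.19 to -0.013. All 8 were below 0, as were 67.0% of tested genes with a level of at least 1000.

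The import machinery through which these proteins reach the matrix also held no called gene. Of 20 genes of the outer and inner membrane translocases and their motor 0 passed, beside 12.9% of all tested genes. An unadjusted p under 0.05 was found for 2, beside 24.9% of all tested genes. Counts of 0 in lists of this length are no result about the lists by themselves. The median was -0.12, beside -0.11 for all tested genes at a level of at least 1000. The receptor TOMM70A (-0.34 ± 0.15, adjusted p = 0.104) and the small intermembrane chaperone TIMM8A (0.38 ± 0.16, adjusted p = 0.109) were the lowest and the highest in the authors' deposited table. TIMM44, which tethers HSPA9 to the import channel, also gave no call, with 0.26 ± 0.16 in the authors' deposited table.

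Some regulators, 1 cytosolic relative, some markers of mitochondrial mass and DIABLO passed. Counts in lists this short are no result about the lists by themselves. Of 11 regulators of mitochondrial stress and biogenesis 2 rose (18.2%) and 0 fell, beside 5.24% and 7.64% of all tested genes. DDIT3, which encodes the stress factor CHOP, rose 1.86-fold (0.89 ± 0.17, adjusted p = 7.57e-06) in the authors' deposited table. PPARGC1A, a coactivator of mitochondrial biogenesis with a mean level of 149, rose 2.11-fold (1.08 ± 0.27, adjusted p = 0.00101) in the authors' deposited table. ATF4 (0.25 ± 0.16) and ATF5 (0.064 ± 0.17), which are tied to the mitochondrial unfolded protein response, and HSF1 (-0.011 ± 0.16) gave no call in the authors' deposited table. A list of 8 HSP90 and HSP70 genes of other compartments gave 1 rise, HSPA8 (12.5%), and 0 falls. Over all tested genes 12.9% passed. HSPA8, HSP90AA1 and HSP90AB1 in that list were among the genes used to read the direction, so the sign of HSPA8 is not a finding. The list leaves out several other HSP70-family genes of the cytosol that were used in the same way. Of those, HSPA6, HSPA1B (0.80 ± 0.15, adjusted p = 9.06e-06), HSPH1 (0.88 ± 0.14, adjusted p = 1.58e-08) and HSPA4L (0.46 ± 0.16, adjusted p = 0.0409) had positive calls in the authors' deposited table.

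Of 15 markers of mitochondrial mass, which are mainly enzymes and respiratory subunits, 3 fell (20%) and 0 rose. Over all tested genes 7.64% fell and 5.24% rose. The list's median was -0.27, beside -0.11 for all tested genes at a level of at least 1000. A few calls in so short a list are no result about the list by themselves. The outer-membrane channel VDAC1 (-0.48 ± 0.14, adjusted p = 0.00877), the succinate dehydrogenase subunit SDHA (-0.58 ± 0.17, adjusted p = 0.00706) and the complex III subunit UQCRC1 (-0.51 ± 0.15, adjusted p = 0.0105) fell in the authors' deposited table. When values were centred on genes of the same level, VDAC1 stood at -0.33 (adjusted p = 0.126) and UQCRC1 at -0.35 (adjusted p = 0.125) and lost their calls, while SDHA kept its call at -0.47 (adjusted p = 0.0469). Among 5 inhibitor of apoptosis genes and their antagonist DIABLO, which like HTRA2 is released from mitochondria, DIABLO fell (-0.54 ± 0.15, adjusted p = 0.00515) in the authors' deposited table. That is 16.7% of the list, beside 12.9% of all tested genes. XIAP, an inhibitor that HTRA2 is known to bind, stood at 0.096 ± 0.23 in the authors' deposited table. Over all 8 partner lists, 3 of 90 genes rose, HSPA8 included, and 4 fell. That share was not tested against the background of 12.9%.

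**Figure D4:**
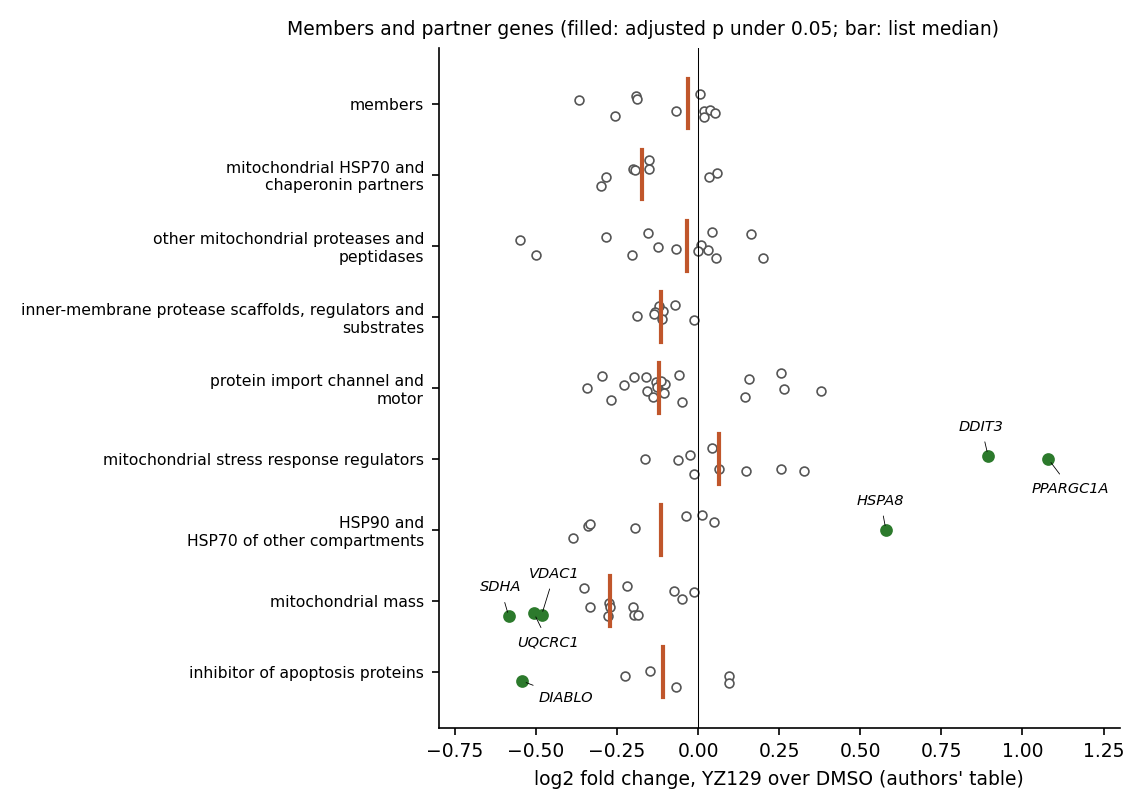
Authors' log2 fold changes (YZ129 over DMSO) of the members and of 8 lists of partner genes; each circle is a gene, filled and named where it passed at 0.05, and bars mark list medians. The 10 members and 4 lists of mitochondrial partners show open circles throughout, and the 7 named genes lie in the 4 lists below them.

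The wider table sets the frame for these values. Of all tested genes 776 rose and 1132 fell. When values were centred on the median of all genes the split became 954 higher and 884 lower, and by decile of mean level 920 higher and 804 lower. The median over the whole tested set was -0.050. By decile it ran from 0.32 in the lowest decile of mean level to -0.16 in the highest. Of 11 astroglial and glioma markers with a row, S100B and SOX2 had a mean level under 10, and GFAP, the defining astrocyte filament, had 52.2 in the authors' deposited table, while VIM and CD44 were among the abundant transcripts. Of the 9 that were tested 0 rose and 4 fell, namely VIM, NES, CD44 and SLC1A3, beside 5.24% and 7.64% of all tested genes. Of these 9, 3 estimates were above 0 and 6 below. OLIG2 (0.82 ± 0.33, adjusted p = 0.0790, in the authors' deposited table) was the 1 gene above 0 with an unadjusted p under 0.05. Of 14 markers of other cell types 7 had a mean level under 10, and 0 of the 7 that were tested passed, with 0 at an unadjusted p under 0.05. Not all were near absent: in the authors' deposited table CD68, a marker of macrophages, had a mean level of 12821 and the neuronal marker SYT1 one of 407.6. The read-through HSPE1-MOB4, with a mean level of 35.2, had 0.95 ± 0.44 in the authors' deposited table and gave no call (adjusted p = 0.145). GENCODE 29 lists 46 pseudogenes named after the members, 17 for HSPD1 and 26 for HSPE1, and 0 of them have a row. The sources used here do not say how reads matching them were counted.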

How the data were processed

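RNA of U87 cells was sequenced in 2 libraries with YZ129 and 2 with DMSO, grouped by title. The build hg19 and the tools Cuffdiff, Cufflinks 2.2.1 and TopHat2 2.0.12 appear in the submitters' processing notes, without roles. Per the file headers, the columns carry the names that DESeq2 writes; the sources used here give neither its version nor the read counter or gene models. The authors deposited a mean level per gene (a signal, read counts over size factors), the SE and value of a log2 fold change, a test score, and each gene's p-value before and after adjustment. The score equalled the log2 fold change over its SE, and the adjustment equalled Benjamini-Hochberg over 14812 genes; the other 4937, at a mean level of 9.43 or less, were not tested. Of 525 genes with at most 2 reads in all, none exceeded 0.58 in size, so folds were moderated. The mean levels of 1153 of the 1153 lowest genes were whole-number sums of 8 per-read steps (tolerance 1e-07), read as 1 step for each library averaged. Total reads per library were not analysed here, so the depth is unknown.

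Calls are the authors' adjusted p under 0.05. Intervals, differences and centred values were computed from the log2 fold changes and SE with Python 3.11.15, pandas 2.3.3 and SciPy 1.17.1, and the centring was tested on simulated data. Transcript lengths and overlaps came from GENCODE 29 and promoter sequences from RefSeq, GRCh38.p14, by symbol; 8 of 10 members matched, with 11 windows. No coordinates of the authors' build were used. Named genes were all 10 members, the called genes of each partner list up to 6, read-through and pseudogene rows; other genes were named after their values were seen. The members, lists, pairs and motifs were chosen with earlier results of these data known.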

Additional observations from a re-analysis of the deposited data

How the results depend on the processing

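No member passed under 5 of 6 alternatives: an adjusted p under 0.01, a minimum log2 fold change of 0.5 in size, adjustment over every gene with a p-value, and centring on the median of all tested genes or of the same decile of mean level. At an adjusted p under 0.1 there were 0 higher and 1 lower, LONP1, whose adjusted p ranged from 0.0906 to 0.446 over all settings. YME1L1 turned to 0.088 (adjusted p = 0.796) when centred by decile. The other 58 of 60 member values kept direction and call. Most of that was fixed in advance, since changes of threshold or adjustment leave every fold change as it is. Direction could turn only under the centrings. An adjusted p under 0.01 and the minimum size can only remove calls, and the members had none. The members' median was 0.019 centred on all genes and 0.11 centred by decile, and between -0.068 and 0.0057 without each member in turn. Partner lists gave 5 higher and 2 lower calls when centred by decile: TIMM8A and ESRRA were added, VDAC1 and UQCRC1 lost. At an adjusted p under 0.01 all genes gave 446 higher and 698 lower. By decile the split of all calls was 920 higher and 804 lower. Leaving out replicates was not run, since the deposited table holds no values per library. No paired analysis was possible because the columns carry no library or replicate numbers. All members had mean levels above 1000. Of the tested genes at such levels, 5533 had an SE no larger than the members' largest. Of these, 884 passed, the smallest change being 0.35 on the log2 scale. That value is no limit for the members, since LONP1 at -0.37 did not pass. What the number of libraries contributes to the lack of member calls was not tested.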
